A study of Mus musculus with 6 samples.

Results

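The Hox genes of mouse embryonic fibroblasts (MEFs) were read cluster by cluster and by position within each cluster, in cells with and without the deubiquitinase gene Atxn3. A gene counted as a Hox gene where its symbol was Hoxa, Hoxb, Hoxc or Hoxd followed by its paralog number, the number that marks its place in the cluster. Where several probe sets (groups of short probes that read the same transcript) named the same single gene, the one with the highest mean over all 6 arrays stood for it. Of the 39 mouse Hox genes in RefSeq, 33 had such a probe set, among 18193 genes read in this way: 9 of 11 in Hoxa (chromosome 6), 9 of 10 in Hoxb (chromosome 11), 7 of 9 in Hoxc (chromosome 15) and 8 of 9 in Hoxd (chromosome 2). The other 6 were not analysed singly here.

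Hox proteins are transcription factors that bind DNA through a homeodomain and tell cells where they lie along the body. The genes stand in 4 clusters, and their order on the chromosome follows their order of expression, with low paralog numbers at the 3′ end of a cluster active towards the head and high numbers at the 5′ end active towards the tail, in the limbs and in the urogenital region. Fibroblasts taken into culture are known to keep much of the Hox pattern of the place they came from. Polycomb proteins hold Hox genes silent and trithorax proteins hold them active, while retinoic acid turns on genes of the 3′ end during development.

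RNA of Atxn3-WT and Atxn3-KO MEFs was hybridised to Affymetrix mouse genome expression arrays, with 3 arrays per genotype that the labels number as replicates. The cells came from wild-type and Atxn3 knockout mice, and the labels name no other allele, agent or time point. The study calls the 3 samples of each genotype biological replicates. The age of the embryos and the part of the embryo used are not given in the sources used here. Nor is whether the replicates were separate embryos or separate cultures of the same cells. The p-values thus measure the spread among these arrays, and 3 arrays per group limit the precision. A difference between the groups in the embryos or the part used could not be told apart from the genotype. All levels below are log2 values, each change is the Atxn3-KO mean minus the Atxn3-WT mean on that scale with its standard error (SE) in parentheses, and a gene was called higher or lower where limma gave it an adjusted p under 0.05 over all 45037 probe sets.

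The targeted gene followed the labels. Atxn3 read 6.53, 6.81 and 6.66 in Atxn3-WT and 3.60, 3.43 and 3.73 in Atxn3-KO. Its change was -3.08 (0.096, adjusted p = 2.09e-06, limma). The other probe set of Atxn3, under the array median on all 6 arrays, changed by -0.35 (0.14, adjusted p = 0.117, limma) and was not called. The 6 arrays had median levels of 5.968 to 6.002, and arrays of the same genotype correlated at 0.998 to 0.999 over all probe sets. As to the label of the cells, Vim, Col1a1 and Fn1, a filament protein and matrix proteins of fibroblasts, lay above 13 in the mean of both genotypes. They were the only 3 of the 12 fibroblast markers listed that were not called. Lum and Fap, also on the list, lay under the array median on all 6 arrays. Of the whole list, 3 were higher (Postn, Lum and Pdgfrb) and 6 lower in Atxn3-KO. This was a larger share than the 31.8% called over all genes, or the 44.7% among those above the array median. The levels of all 12, summed on the linear scale, ran from 83400 to 84581 on the Atxn3-WT arrays and from 76096 to 78867 on the Atxn3-KO arrays. Thy1, a fibroblast surface protein that not all fibroblasts carry, was lower by the most, with a change of -4.21 (0.052, adjusted p = 2.98e-08, limma).

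Hox genes changed in both directions, and all that were called higher were Hoxa or Hoxc genes. In Atxn3-KO 12 of the 33 Hox genes were higher, 8 were lower and 13 were not called. The share called was thus 60.6%, against 31.8% of all genes, of which 17.1% were higher and 14.7% lower. The higher ones were 7 Hoxa and 5 Hoxc genes, and no Hoxb or Hoxd gene was called higher. A change of at least 0.5 beside the call was found for 11 of the 33 Hox genes, 8 higher and 3 lower, against 7.32% of all genes. The values of the 3 Atxn3-KO arrays lay wholly above or wholly below those of the 3 Atxn3-WT arrays for 23 Hox genes (69.7%), against 49.2% of all genes. A called gene will mostly show no overlap, so such remarks on single genes below add no support beyond the call. At the thresholds of the study, which ask for at least 2-fold and for 0.001 or less as the adjusted p, Hoxc4 and Hoxc8 were higher and Hoxb13 was lower, where 1.93% of all genes passed. The median change was -0.04 over the Hox genes and 0.0021 over all genes.

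**Figure D1:**
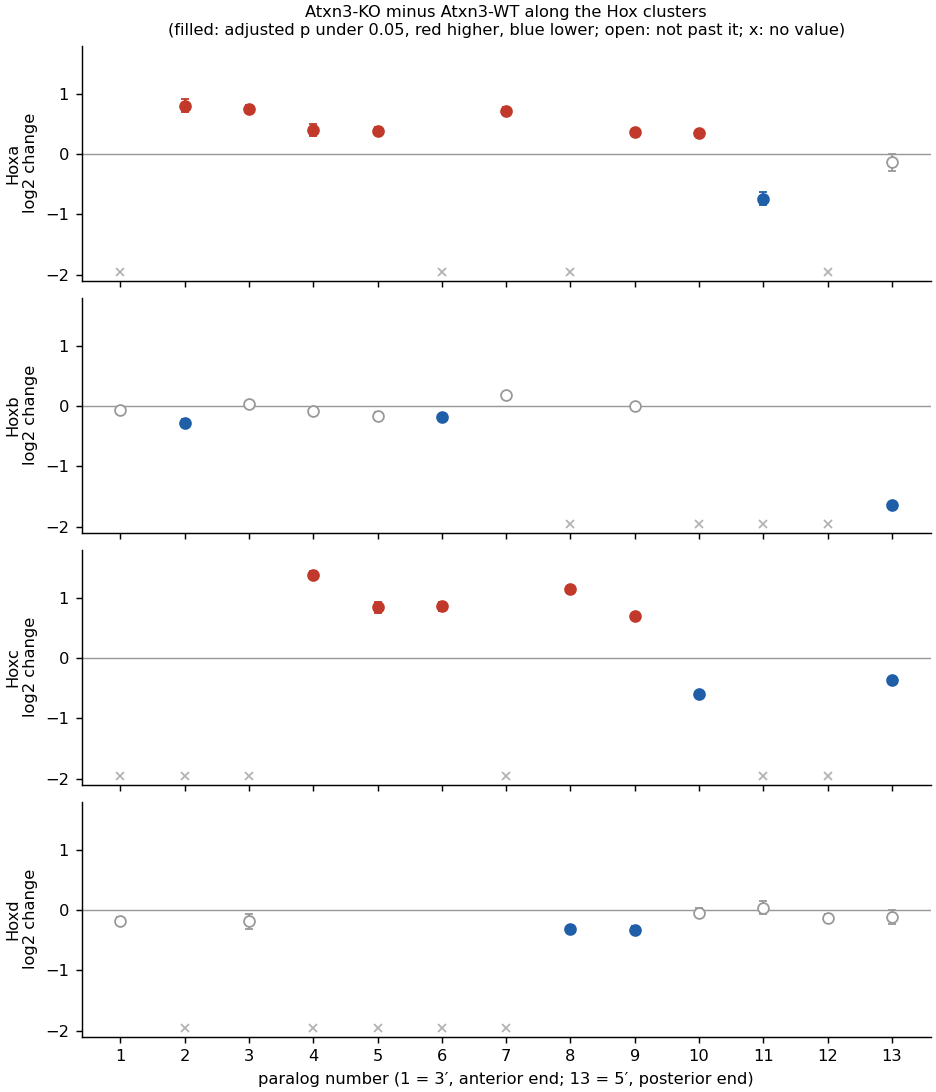
Change of each measured Hox gene (vertical axis, log2 level, Atxn3-KO mean minus Atxn3-WT mean, error bars SE, 3 arrays per genotype) against its paralog number (horizontal axis), 1 panel per cluster; filled points passed an adjusted p of 0.05 (red higher, blue lower), open points did not, and grey crosses mark numbers with no value. Hoxa and Hoxc genes up to number 9 lay above 0, from 0.37 to 1.39, whereas Hoxa11, Hoxb13, Hoxc10 and Hoxc13 lay below 0, from -1.64 to -0.36.

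Calls were more frequent among the brighter genes. Of the Hox genes above the array median on all 6 arrays, 16 of 20 were called, against 44.7% of all genes in that range. Of those under the median on all 6 arrays, 2 of 11 were called, against 7.95%. The remaining 2, Hoxa2 and Hoxc5, lay on both sides of the median and were both called. Hoxb1, Hoxd1, Hoxd10 and Hoxd11 lay under the 25th percentile on all arrays, and a missing call there does not show that a gene was alike in both genotypes. The arrays read whole cultures, so a different mix of cells and a different amount of RNA per cell cannot be told apart.

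The Hoxc cluster held the largest rises among the Hox genes. Hoxc4, which acts in the skeleton at the level of the neck and upper chest, read 7.84, 7.79 and 7.79 in Atxn3-WT and 9.25, 9.11 and 9.22 in Atxn3-KO. It rose by 1.39 (0.051), or 2.62-fold (adjusted p = 4.3e-06, limma), and the gap between the genotypes was far wider than the spread within either. Hoxc8, which shapes the ribs and the motor neurons of the forelimb, read 9.84, 9.996 and 9.91 in Atxn3-WT and 11.06, 11.04 and 11.08 in Atxn3-KO. Its rise was 1.15 (0.052), or 2.21-fold (adjusted p = 1.06e-05, limma), and again no array of one genotype came near those of the other.

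The genes between and beside these rose as well. Hoxc5 read 5.91, 5.62 and 5.88 against 6.55, 6.67 and 6.71, a change of 0.84 (0.086, adjusted p = 0.000463). Hoxc6, a gene of the thoracic region, read 8.93, 8.72 and 8.73 against 9.71, 9.59 and 9.66, a change of 0.86 (0.067, adjusted p = 0.000138). Hoxc9, also a gene of the thorax, read 10.14, 10.10 and 10.11 against 10.85, 10.83 and 10.77, a change of 0.70 (0.044, adjusted p = 5.05e-05). In none of the 3 did the genotypes overlap, and all 5 measured Hoxc genes from number 4 to number 9 were thus higher in Atxn3-KO.

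Beyond Hoxc9 the direction turned. Hoxc10, which acts at the lumbar level and in the hindlimb, read 9.99, 9.98 and 10.02 in Atxn3-WT and 9.42, 9.40 and 9.37 in Atxn3-KO, so that it fell by 0.60 (0.042, adjusted p = 8.13e-05). Hoxc13, known for its part in hair and nails, read 8.13, 8.04 and 7.99 against 7.70, 7.73 and 7.66, a change of -0.36 (0.052, adjusted p = 0.00219). Both were lower on every Atxn3-KO array than on any Atxn3-WT array. Between the neighbours Hoxc9 and Hoxc10 the change differed by 1.30 on the log2 scale (SE 0.022 over the arrays), the difference lying between 1.28 and 1.31 on the 3 Atxn3-KO arrays, centred on the Atxn3-WT mean. The SE of this step, and of the like steps below, came from the differences on the arrays and not from limma. It is not to be set against the SE of a single gene. This step was chosen after its values were seen and was not tested.

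**Figure D2:**
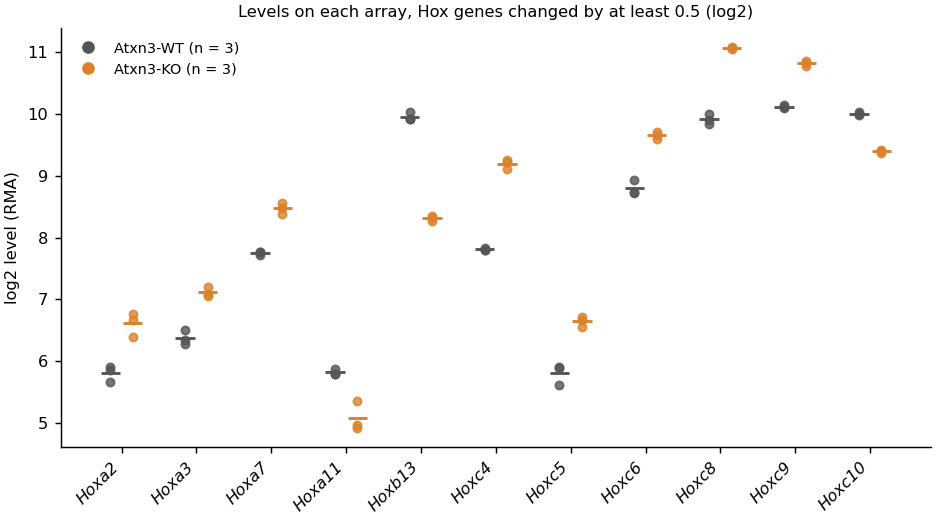
Level of the 11 Hox genes called with a change of at least 0.5 (vertical axis, log2 RMA value) on each of the 3 Atxn3-WT arrays (grey) and 3 Atxn3-KO arrays (orange), with short lines at the group means; levels of different genes come from different probes and are not to be compared. The groups did not overlap for any of the 11, which follows largely from choosing them by call and size of change. Over all genes 49.2% did not overlap. The widest gaps were those of Hoxb13 (9.91 to 10.04 against 8.28 to 8.36) and Hoxc4 (7.79 to 7.84 against 9.11 to 9.25).

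In the Hoxa cluster too, the genes of the 3′ end and the middle were higher, and the turn came between numbers 10 and 11. At its 3′ end Hoxa2, which gives the second branchial arch its identity, read 5.90, 5.66 and 5.86 in Atxn3-WT and 6.40, 6.67 and 6.77 in Atxn3-KO, a rise of 0.80 (0.11, adjusted p = 0.0015). Hoxa3, needed for the thymus and parathyroid glands, read 6.50, 6.27 and 6.34 against 7.06, 7.09 and 7.19, a rise of 0.74 (0.070, adjusted p = 0.000314). Hoxa7, a gene of the trunk, read 7.77, 7.72 and 7.76 against 8.37, 8.56 and 8.48, a rise of 0.72 (0.057, adjusted p = 0.000142). The lowest Atxn3-KO array stood above the highest Atxn3-WT array for each of these genes.

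Smaller rises were found at the other Hoxa genes up to number 10. Hoxa4 changed by 0.40 (adjusted p = 0.0243), Hoxa5, which acts in the lung and the upper trunk, by 0.39 (adjusted p = 0.00294), Hoxa9, best known from blood stem cells and leukaemia, by 0.37 (adjusted p = 0.00161), and Hoxa10, needed in the uterus and at the lumbar level, by 0.35 (adjusted p = 0.0028). Hoxa4 lay under the array median on all 6 arrays, and its call was lost without replicate 1 or 2 of Atxn3-WT or replicate 1 or 3 of Atxn3-KO, at adjusted p values of 0.0705 to 0.0800. For Hoxa10 the rise rested on the probe set that stood for it. Its other one, under the median on all 6 arrays, gave -0.09 (0.13, adjusted p = 0.676).

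Hoxa11, which forms the forearm and lower leg and acts in the uterus, went the other way. It read 5.80, 5.79 and 5.87 in Atxn3-WT and 5.36, 4.96 and 4.92 in Atxn3-KO, and fell by 0.74 (0.11, adjusted p = 0.00267). Replicate 1 of Atxn3-KO lay between the other arrays of its group and those of Atxn3-WT, and the groups did not overlap. All 6 values were under the array median. The change differed by 1.09 (SE 0.17) between the neighbours Hoxa10 and Hoxa11, which was not tested. Hoxa13, which patterns hands, feet and the urogenital outlet, changed by -0.14 (0.14) and was not called (adjusted p = 0.553).

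Promoter windows are shown for the named genes that the RefSeq promoter table (GRCm38.p6) holds, 5 of the 11, so that Hoxa2, Hoxa3, Hoxa7 and Hoxc4, which rose, can be set beside Hoxa11, which fell. Each window runs 5′ to 3′ on the strand of its gene, from 250 bases before a RefSeq start to 50 after it. Capitals mark TAAT, the core of homeodomain binding, read on either strand as TAAT or ATTA. The windows are chr6:52164782-52165081 for Hoxa2, chr6:52213018-52213317 for Hoxa3, chr6:52218524-52218823 for Hoxa7 and chr6:52245761-52246060 for Hoxa11, all on the minus strand, and chr15:103034145-103034444 on the plus strand for Hoxc4, whose start here lies inside the annotated gene. The Hoxa3 window lies far closer to that of Hoxa7 than to that of Hoxa2, although Hoxa4 and Hoxa5 stand between Hoxa3 and Hoxa7. Its start may thus be a distant one, and other starts of Hoxa3 are not shown.
Hoxa2: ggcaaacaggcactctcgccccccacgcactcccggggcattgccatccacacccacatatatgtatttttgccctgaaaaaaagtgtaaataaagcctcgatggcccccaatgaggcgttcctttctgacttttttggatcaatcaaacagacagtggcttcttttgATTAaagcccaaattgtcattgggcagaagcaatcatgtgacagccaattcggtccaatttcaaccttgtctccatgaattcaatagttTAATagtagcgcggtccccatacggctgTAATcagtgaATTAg
Hoxa3: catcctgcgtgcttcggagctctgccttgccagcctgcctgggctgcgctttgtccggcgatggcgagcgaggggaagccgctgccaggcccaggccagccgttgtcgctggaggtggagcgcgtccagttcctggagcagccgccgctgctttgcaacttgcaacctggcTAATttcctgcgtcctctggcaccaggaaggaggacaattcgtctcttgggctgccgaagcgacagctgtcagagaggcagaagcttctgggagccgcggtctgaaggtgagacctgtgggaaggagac
Hoxa7: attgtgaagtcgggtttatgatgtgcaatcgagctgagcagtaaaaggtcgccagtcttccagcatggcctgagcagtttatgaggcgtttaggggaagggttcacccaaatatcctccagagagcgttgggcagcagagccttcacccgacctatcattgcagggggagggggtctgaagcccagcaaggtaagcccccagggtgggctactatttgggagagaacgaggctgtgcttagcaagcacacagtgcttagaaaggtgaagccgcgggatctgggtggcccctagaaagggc
Hoxc4: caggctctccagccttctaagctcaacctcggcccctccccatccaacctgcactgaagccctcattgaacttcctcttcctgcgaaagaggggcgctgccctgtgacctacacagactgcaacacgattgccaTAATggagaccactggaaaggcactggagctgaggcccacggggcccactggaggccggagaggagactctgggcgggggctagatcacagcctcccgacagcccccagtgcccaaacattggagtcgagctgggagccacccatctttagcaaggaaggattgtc
Hoxa11: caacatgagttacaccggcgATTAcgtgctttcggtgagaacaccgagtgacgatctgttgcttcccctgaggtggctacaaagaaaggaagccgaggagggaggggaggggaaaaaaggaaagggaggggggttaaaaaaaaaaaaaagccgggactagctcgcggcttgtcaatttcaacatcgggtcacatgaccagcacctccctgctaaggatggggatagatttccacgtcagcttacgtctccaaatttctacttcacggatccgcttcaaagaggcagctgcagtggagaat
The core occurred 4 times in the Hoxa2 window, once in those of Hoxa3, Hoxa11 and Hoxc4, and 0 times in that of Hoxa7. The Hoxa2 window also held TGATNNAT, a joint site of Hox and PBX proteins, and 4 CCAAT boxes, and that of Hoxc4 held 1 CCAAT box and 1 GC box (GGGCGG). Over the 21 windows of 19 measured Hox genes, TAAT was found in 81.0%, against 58.0% of all 32851 windows of this length, TGATNNAT in 14.3% against 8.85%, CCAAT in 57.1% against 37.4%, GGGCGG in 38.1% against 35.7%, and TATAAA in 9.52% against 13.6%. A direct repeat of AGGTCA with 5 bases between, a spacing used by retinoic acid receptors, was in 0 Hox windows and in 3 of all windows. Both strands were searched, TAAT can overlap TGATNNAT, and the GC content had a median of 58% in the Hox windows and 52.7% in all. A match describes the letters only, and among the windows shown Hoxa3 and Hoxc4, which rose, and Hoxa11, which fell, held the core the same number of times.

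In the Hoxb cluster a single large fall at the 5′ end stood beside small changes elsewhere. Hoxb13, the most posterior gene of the cluster, known from the tail bud, the hindgut and the prostate, read 9.91, 9.92 and 10.04 in Atxn3-WT and 8.31, 8.36 and 8.28 in Atxn3-KO. It fell by 1.64 (0.052), to a level 3.12-fold lower (adjusted p = 2.19e-06, limma), which was the largest change of any Hox gene measured here. Its nearest measured neighbour Hoxb9 read 10.65, 10.68 and 10.78 against 10.71, 10.73 and 10.68, a change of 0.0010 (0.049, adjusted p = 0.991). The change thus differed by 1.64 between both genes (SE 0.010, from the array differences and not from limma). This difference was chosen after its values were seen and was not tested.

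Of the other Hoxb genes 2 were called, both lower. Hoxb2, which acts in the hindbrain, changed by -0.28 (0.055, adjusted p = 0.00937) and Hoxb6 by -0.18 (0.045, adjusted p = 0.0225), the latter call being lost without replicate 2 or 3 of Atxn3-WT or replicate 1 or 3 of Atxn3-KO (adjusted p = 0.0520 to 0.0768). Hoxb1, Hoxb3, Hoxb4, Hoxb5 and Hoxb7 were not called, with changes from -0.16 (Hoxb5) to 0.18 (Hoxb7), although for both of these the groups did not overlap. The probe set shared by Hoxb7 and Hoxb8, which cannot be given to either, changed by -0.10 (adjusted p = 0.212).

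Hoxd genes moved little. Hoxd8 read 7.24, 7.22 and 7.13 against 6.80, 6.97 and 6.88, a change of -0.31 (0.060, adjusted p = 0.00763), and Hoxd9 read 6.65, 6.56 and 6.81 against 6.37, 6.35 and 6.32, a change of -0.33 (0.069, adjusted p = 0.0119). Both are genes of the trunk and limbs and were lower on all Atxn3-KO arrays. The other 6, among them Hoxd10 to Hoxd13 of the limb and digits, changed by -0.19 to 0.04 and were not called, and 6 of the 8 Hoxd genes lay under the array median throughout. Both probe sets shared by Hoxd3 and Hoxd4 were lower, by -0.35 (adjusted p = 0.0159) and -0.52 (adjusted p = 0.0029), whereas the one that names Hoxd3 alone gave -0.19 (adjusted p = 0.361).

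**Figure D3:**
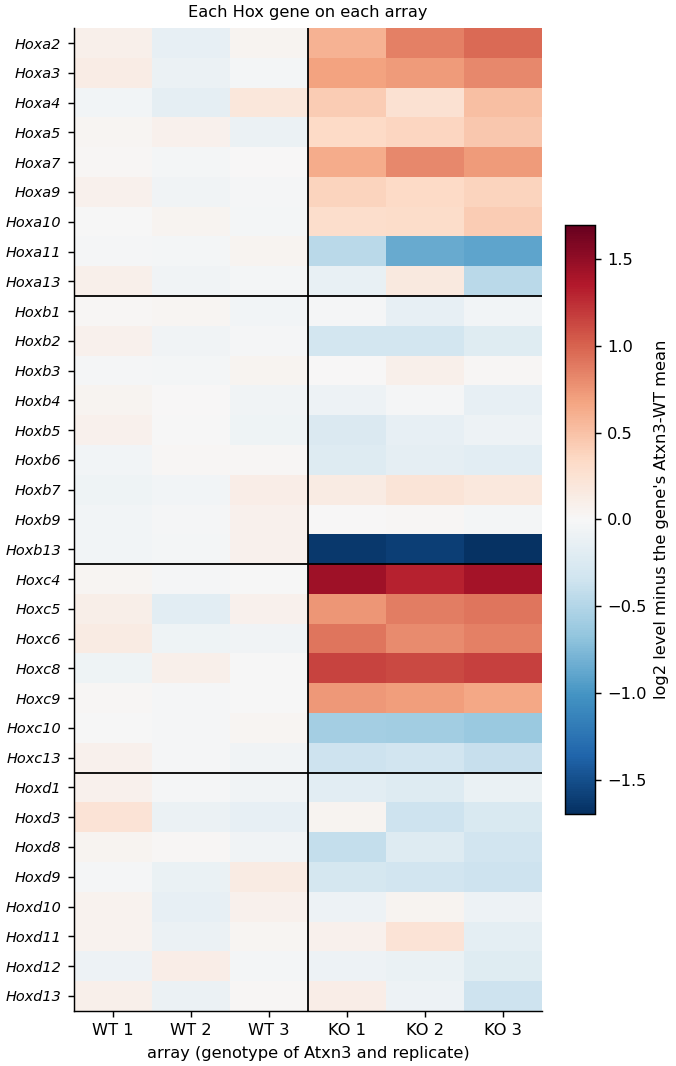
Level of each of the 33 Hox genes (rows, ordered by cluster and paralog number) on each of the 6 arrays (columns), as log2 level minus the gene's mean over the 3 Atxn3-WT arrays (red higher, blue lower). The red blocks of Hoxa2 to Hoxa10 and Hoxc4 to Hoxc9 and the blue bars of Hoxb13, Hoxc10 and Hoxa11 appeared on all 3 Atxn3-KO arrays, while the Hoxd rows stayed pale, the genes there changing by -0.33 to 0.04.

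Set side by side, the clusters had median changes of 0.39 (Hoxa), -0.08 (Hoxb), 0.84 (Hoxc) and -0.15 (Hoxd). All 11 measured Hoxa and Hoxc genes with paralog numbers up to 9 were higher, by 0.37 to 1.39 with a median of 0.74. Of the 5 with numbers 10 to 13, 1 was higher (Hoxa10), 3 were lower (Hoxa11, Hoxc10 and Hoxc13) and 1 was not called. Among the 17 Hoxb and Hoxd genes, 0 were higher and 5 were lower, a share called of 29.4%, near the 31.8% of all genes. Of these 17, 8 lay under the array median on all 6 arrays, where 7.95% of all genes were called. Within some paralog groups the calls differed between clusters. Of the paralogs with number 9, Hoxa9 and Hoxc9 were higher, Hoxd9 was lower and Hoxb9 was not called, and of those with number 4, Hoxa4 and Hoxc4 were higher and Hoxb4 was not called. At number 13 Hoxb13 and Hoxc13 were lower, while Hoxa13 and Hoxd13 were not called, and their sign turned without replicate 3 of Atxn3-KO (0.02 and 0.01). These groupings were made with the values known and carry no test of a difference between clusters.

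As a description, the correlation of the change with the paralog number was -0.75 over the 9 Hoxa genes (Spearman -0.93) and -0.81 over the 7 Hoxc genes (Spearman -0.82). In Hoxb it was -0.66 over 9 genes, but the rank correlation was -0.08, and in Hoxd it was 0.33 over 8 genes (Spearman 0.57). Over all 33 it was -0.38 (Spearman -0.33). The genes share arrays and neighbouring regulatory DNA and are not independent replicates.

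Other probe sets of the same genes bore on these values. Of the 33 genes, 22 had 1 probe set and 11 had others, 15 in all, of which 5 were called, each in the direction of the probe set that stood for the gene. Hoxc6 had a second that changed by 0.81 (0.052) and one that changed by 0.15 and was not called. Hoxa3 had one that changed by 0.48 (adjusted p = 0.031) and a pair under the array median, at -0.09 and 0.14, that were not called. For Hoxc5 both others, at 0.18 and 0.10, were not called, so that its change of 0.84 came from a single probe set. Hoxa5 and Hoxa9 each had a second that was also higher, by 0.17 and 0.27, and the second of Hoxd8 was also lower, by -0.35.

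Transcripts and genes around the Hox genes were read from lists of names. Of the noncoding and antisense genes inside the clusters 3 of 19 were measured, and 2 were lower. Over all genes 14.7% were lower, but 3 genes are too few to compare shares. Hoxb5os, which lies opposite Hoxb5, read 7.29, 7.25 and 7.33 in Atxn3-WT and 6.44, 6.14 and 6.17 in Atxn3-KO, and fell by 1.03 (0.083, adjusted p = 0.000152), whereas Hoxb5 itself changed by -0.16 and was not called. Hoxd3os1 changed by -0.22 (adjusted p = 0.0216), and Hoxa11os by -0.24 without a call (adjusted p = 0.0823).

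Among the protein-coding genes that flank the clusters, 21 of 22 were measured, of which 4 were higher and 3 lower, with a median change of -0.02, a share called close to the 31.8% of all genes. The 4 higher ones all flank Hoxa, where 5 were measured, a grouping seen in the values and not tested. Beyond the 3′ end, Snx10, a protein of endosomes, read 10.13, 10.11 and 10.12 against 10.74, 10.76 and 10.71, a rise of 0.61 (0.041, adjusted p = 6.55e-05), and Skap2, an adaptor of signalling, rose by 0.45 (0.051, adjusted p = 0.000719). Beyond the 5′ end, Hibadh, an enzyme of valine breakdown, read 10.66, 10.60 and 10.62 against 11.17, 11.21 and 11.24, a rise of 0.58 (0.043, adjusted p = 0.000113), and Tax1bp1, an autophagy receptor, rose by 0.20. The homeobox gene Evx1, which lies between Hoxa13 and Hibadh, changed by -0.10 and was not called. No flanking gene of Hoxb, Hoxc or Hoxd was higher: 1 of 6, 0 of 5 and 2 of 5 were lower.

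PBX, MEIS and PREP proteins bind DNA together with Hox proteins, and of 9 listed 8 were measured, 3 of them higher and 3 lower, with a median change of -0.11, beside 44.7% called among all genes above the array median, as these 8 were. Meis2, a cofactor that marks the proximal limb, read 10.39, 10.28 and 10.30 in Atxn3-WT and 8.94, 8.95 and 8.99 in Atxn3-KO, and fell by 1.36 (0.048, adjusted p = 3.4e-06). The others called with the largest changes were Pknox2 at 0.29, Meis3 at -0.28 and Meis1 at -0.25, each of which changed much less than Meis2.

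Of 28 measured Polycomb genes 9 were higher and 5 lower, with a median change of 0.14, a share called near the 44.7% of all genes above the array median, where all 28 lay. The largest were Pcgf1 at 0.43 (0.071), Rbbp7 at 0.39 (0.042), Aebp2 at 0.38 (0.045) and Phc2 at 0.31 (0.042), subunits and partners of both Polycomb complexes. Of 15 trithorax genes, histone demethylases and related activators 2 were higher and 8 lower, with a median of -0.18, and all 15 lay in that range too. Those that fell the most were Dot1l, a histone methyltransferase, at -0.32 (0.051), Kdm6b, a demethylase that removes the Polycomb mark, at -0.30 (0.064), Kmt2a, a methyltransferase of the trithorax type, at -0.28 (0.072), and Ash2l, a subunit of that complex, at -0.27 (0.046). Of 7 measured upstream regulators of the body axis, such as the Cdx genes, 0 were higher and 1, the insulator protein gene Ctcf, was lower (-0.16, adjusted p = 0.0458), with a median of 0.03. This stood beside 31.8% called over all genes. However, 4 of the 7, among them Cdx1, Cdx2 and Cdx4, lay under the array median on all arrays. Only 7.95% of all genes in that range were called, so the missing calls say little.

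Among the genes that sense, make or break down retinoic acid, both binding proteins of the cytoplasm changed by more than any Hox gene did. Of 16 measured, 5 were higher and 4 lower, with a median of 0.01, beside 31.8% called over all genes. Crabp1, which binds retinoic acid in the cytoplasm, read 12.13, 12.11 and 12.13 in Atxn3-WT and 9.97, 10.07 and 10.13 in Atxn3-KO, and fell by 2.07 (0.053, adjusted p = 9e-07). Crabp2, which carries retinoic acid to its receptors, read 9.004, 8.996 and 9.11 against 7.21, 7.06 and 7.09, and fell by 1.92 (0.059, adjusted p = 2.07e-06). Rarb, a receptor gene that retinoic acid itself induces, fell by 0.78 (0.071, adjusted p = 0.000264), and Dhrs3, which turns retinal back to retinol, rose by 0.59 (0.061, adjusted p = 0.000475). The genes of synthesis and breakdown Aldh1a1, Aldh1a2, Aldh1a3, Cyp26a1 and Cyp26b1 lay under the array median on all arrays and were not called.

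Of 38 measured transcription factors of regional identity outside the Hox clusters, 11 were higher and 12 lower, with a median of 0.06, beside the same 31.8%. Tbx1, a gene of the pharyngeal arches, read 7.97, 8.01 and 7.66 in Atxn3-WT and 5.16, 4.86 and 5.74 in Atxn3-KO, and fell by 2.63 (0.21, adjusted p = 0.000155). Foxd1, a gene of kidney stroma and facial mesenchyme, fell by 1.65 (0.062, adjusted p = 4.51e-06), and Barx1, a homeobox gene of the jaw and stomach, fell by 1.43 (0.11, adjusted p = 0.000117). Foxc2, a gene of paraxial and vessel-forming mesoderm, rose by 1.26 (0.092, adjusted p = 9.88e-05).

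**Figure D4:**
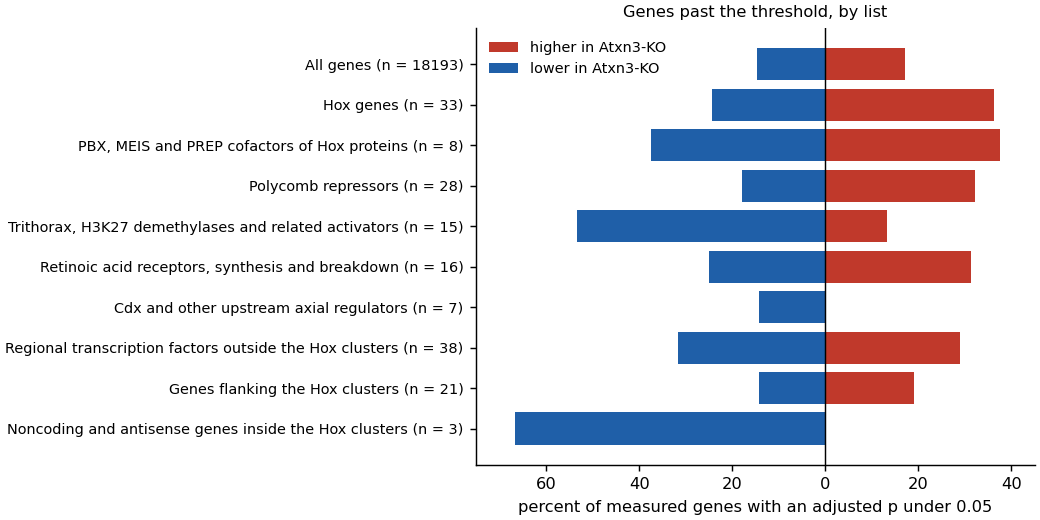
Percent of the measured genes of each list with an adjusted p under 0.05 (horizontal axis), higher in Atxn3-KO to the right in red and lower to the left in blue, with the number measured beside each name. All genes stood at 17.1% and 14.7%, and the Hox genes at 12 of 33 and 8 of 33, while the list of noncoding genes held only 3 genes.

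Marker genes of other cell types that a MEF culture could hold were read beside these. Over all genes 31.8% were called, and 7.95% of those under the array median on all 6 arrays. Of 9 macrophage markers 0 were called, their summed linear level ran from 583 to 625 in Atxn3-WT and from 616 to 630 in Atxn3-KO, and Ptprc and Itgam lay under the 25th percentile on all arrays. Of 8 endothelial markers 1 was higher, Eng at 1.33, which fibroblasts also express, and the other 7 were not called. The sum went from 465 to 499 in Atxn3-WT to 840 to 852 in Atxn3-KO, a rise that came from Eng, with Vwf, Tie1 and Tek under the 25th percentile. Of 8 epithelial markers 2 were higher, Krt18 at 1.27, which lay under the array median on all 6 arrays, and Epcam at 0.38. The sum was 1134 to 1307 against 1408 to 1521, and Cdh1 lay under the 25th percentile. The probe set of Epcam ends in _x_at, a kind that may read related transcripts. Of 7 neural and glial markers 2 were higher, Map2 at 1.55 and Sox2 at 0.25, and 2 lower, Tubb3 at -0.95 and Nes at -0.51. Their sums were 2645 to 2747 against 2126 to 2182, and Sox2, though called, lay under the 25th percentile. Of 8 muscle markers 2 were lower, Tnnt2 at -1.45 and Nkx2-5 at -0.35, with sums of 417 to 440 against 367 to 383 and Myf5 and Myh3 under the 25th percentile. The part of these differences in the Hox values was not tested.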

How the data were processed

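RNA of 3 Atxn3-WT and 3 Atxn3-KO MEF samples was read on Affymetrix mouse genome expression arrays. The deposited values are log2 levels per probe set that the authors made with RMA, which corrects the background, makes the distributions of the arrays alike and summarises probes, so a shift common to all genes cannot be seen. RMA and limma are the tools named in the submitters' processing notes, without versions. All 6 arrays were used, and 64 control probe sets were left out.

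Atxn3-KO was compared with Atxn3-WT by limma 3.58.1 in R 4.3.3 (lmFit and eBayes, equal array weights) over 45037 probe sets, with Benjamini-Hochberg adjustment and a threshold of 0.05. The code was tested on simulated data. The methods state a weighted model without naming the weights, so array weights were an alternative. Symbols came from GEO's platform annotation: 34945 probe sets name 1 gene, 932 name several and 9160 none, and only the first were used for gene counts. No 2 arrays of a genotype shared more than 0.386% of their values. Members and lists were chosen with earlier results of these data known. Hox genes called with a change of at least 0.5, and Hoxc4, Hoxc8 and Hoxb13, are given by array, other called Hox genes with their change, the rest by name and range, and of each other list up to 4 called members with the largest change are named. Other genes named (Atxn3, fibroblast proteins, markers under the 25th percentile, Evx1, Hoxa11os, Tax1bp1 and uncalled retinoic acid genes) give context. Lists are described by counts and medians, with no set test. Promoter windows came from RefSeq (GRCm38.p6), where 19 of the 33 genes matched. Alternatives covered array weights, a replicate block, normalization, centring, a filter on low values, the variance model, the choice of probe set, thresholds and leaving out each array.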

Additional observations from a re-analysis of the deposited data

How the results depend on the processing

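At an adjusted p of 0.05, 17 of 20 called Hox genes kept their call and direction under every alternative fit that gave a value. Other thresholds, given below, called fewer. Of the values of single Hox genes, 458 of 483 kept their direction and side of the threshold, genes that were not called included. The replicate block, the variance models and the filter on low values cannot alter a log2 change, so only the call could move there. Hoxa4 and Hoxb6 lost their call when any 1 of 4 arrays was left out. Hoxa10 read 0.13 (adjusted p = 0.268) as the mean of its probe sets and -0.0878 (adjusted p = 0.676) without probe sets that may read several transcripts. Genes that were not called and changed sign were Hoxb9, with array weights (-0.0018) and in 4 of the 6 fits without an array (leaving out each array gave -0.0243 to 0.0382, with -0.0115 to -0.0014 without Atxn3-KO replicate 2 or 1), Hoxd11 without Atxn3-WT replicate 2 (-0.0038) or Atxn3-KO replicate 2 (-0.0497, range -0.0497 to 0.1505), Hoxa13 without Atxn3-KO replicate 3 (0.0243, range -0.2914 to 0.0243), and Hoxd13 without it (0.0145, range -0.2186 to 0.0145) and as the mean of its probe sets (0.0085). Hoxb7 was called higher in 2 alternatives, whereas Hoxd1 was called lower in 2 and Hoxb5 in 1. Leaving out 1 array gave 11 to 13 Hox genes higher and 7 to 8 lower, in the other lists 35 to 40 higher and 37 to 40 lower (42 and 48 with all arrays), cluster medians of 0.36 to 0.40 (Hoxa), -0.11 to -0.060 (Hoxb), 0.75 to 0.89 (Hoxc) and -0.19 to -0.10 (Hoxd), and an Atxn3 change of -3.15 to -3.00. A test against a 1.2-fold change left 8 Hox genes higher and 3 lower and 13 and 19 in the other lists. The share of all genes passing that test was not counted, so these counts cannot be set against it. The study's thresholds left 2 and 1, and 5 and 10, where 1.93% of all genes passed. Leaving out the dimmer probe sets gave medians of 0.555 (Hoxa), -0.16 (Hoxb) and -0.32 (Hoxd) over fewer genes, with no value for Atxn3, and the mean of all probe sets gave 0.32 (Hoxa) and 0.61 (Hoxc).

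The labels do not say whether the replicate numbers pair the samples. Over all probe sets the deviations of arrays with the same number correlated at 0.021, -0.023 and -0.036. This showed no shared deviation but cannot show that the samples were unpaired. With the replicate number as a block 12 Hox genes were higher and 8 lower, and 38 and 40 in the other lists. Under the array median 7.95% of all genes were called, which limits what can be read there, and 3 arrays per genotype set the spread that every p-value rests on. Probe sets ending in _s_at or _x_at, such as those that stand for Hoxa3, Hoxc6, Epcam and Tnnt2, may read related transcripts.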
